A study of Mus musculus with 32 samples.

Results

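The 6 genes described here were the alpha globins Hba-a1 and Hba-a2, the beta globins Hbb-bs and Hbb-bt, the heme synthesis enzyme gene Alas2 and the red cell anion exchanger gene Slc4a1. They were taken by symbol from a count table of 39676 genes, and all 6 had a row. RNA-seq was performed on whole tumors from 32 female mice, 8 to 10 weeks old, that had been inoculated 10 days earlier with syngeneic mesothelioma cells, with 8 mice in each of 4 groups. BALB/c mice received 500000 AB1 cells and C57BL/6 mice received 1000000 AE17 cells, either into the pleural cavity (IPL, in 200 μL) or under the skin of the flank (SC, in 100 μL). The lungs and other neighboring tissue had been cut away from the IPL tumors before RNA was extracted, and each tumor came from 1 mouse. The strain and the cell line changed together, so that the 2 cannot be told apart in any comparison of AB1 with AE17. The study set IPL against SC tumors within each line, and the same contrast is used here to describe how much red cell RNA the tumors held.

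Hemoglobin is built from alpha and beta globin chains around heme, and a red cell precursor devotes most of its protein synthesis to these chains before it loses its nucleus. Reticulocytes, the young cells released into the blood, still carry globin and Alas2 mRNA, whereas mRNA for membrane proteins such as band 3, the product of Slc4a1, is most abundant in nucleated precursors, which in adult mice lie in the marrow and spleen. Inbred mice carry different beta globin haplotypes: C57BL/6 mice have the single haplotype, with the adult genes Hbb-bs and Hbb-bt, and BALB/c mice have the diffuse haplotype, with Hbb-b1 and Hbb-b2. The count table named the adult beta globins by their C57BL/6 forms. Hbb-b1 and Hbb-b2, looked up by symbol, had no row in it and could not be analysed here.

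The globin rows cannot be read as separate genes, because their reads of 50 bases mostly fit both copies of a pair. Hba-a1 (ENSMUSG00000069919.7) lay at chr11:32283511-32284465 and Hba-a2 (ENSMUSG00000069917.7) at chr11:32296489-32297298, both on the plus strand of GRCm38. Hbb-bs (ENSMUSG00000052305.6) lay at chr7:103826534-103828096 and Hbb-bt (ENSMUSG00000073940.3) at chr7:103812524-103813996, both on the minus strand. Each had 3 exons in the GENCODE M21 annotation. The 429 coding bases of the alpha pair differed at 1 position, C381T, and the 444 coding bases of the beta pair differed at 1 position, C417T, with the base of the first-named gene first and positions counted from the A of the start codon. The last 100 coding bases of each gene, all in exon 3, are shown because they hold this single difference, which is in capitals.
Hba-a1: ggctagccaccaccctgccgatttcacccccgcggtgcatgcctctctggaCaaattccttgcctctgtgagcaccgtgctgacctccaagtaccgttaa
Hba-a2: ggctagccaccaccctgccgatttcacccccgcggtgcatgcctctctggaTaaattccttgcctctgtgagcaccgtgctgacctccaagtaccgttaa
Hbb-bs: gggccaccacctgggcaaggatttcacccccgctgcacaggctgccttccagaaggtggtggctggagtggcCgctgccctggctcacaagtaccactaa
Hbb-bt: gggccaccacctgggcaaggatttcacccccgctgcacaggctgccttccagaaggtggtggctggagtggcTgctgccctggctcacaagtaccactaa

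Of all 50-base windows of the Hba-a1 transcript, 67.5% also occurred in Hba-a2, and 86.9% of the windows of Hba-a2 occurred in Hba-a1. For the beta pair the shares were 65.8% of the Hbb-bs windows and 58.3% of the Hbb-bt windows. No window was shared between Hba-a1 and Hbb-bs. A comparison of Hba-a1 with Hbb-bs is therefore free of shared windows, while a comparison within a pair is not.

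The sequence before the RefSeq start of each gene is shown because the globins and Alas2 moved together over the 32 tumors, though not detectably within AB1 SC tumors. Their promoters also hold short motifs known from red cell genes. An entry in the RefSeq promoter table (GRCm38.p6) was found for 5 of the 6 genes, all but Slc4a1. Capitals mark 4 motifs on either strand. The motif CACCC is the core of the box that the erythroid factor KLF1 binds. The box CCAAT is common to many promoters. Erythroid GATA factors bind AGATAA. The motif ATAAA is part of the usual core promoter element. Each line is the 150 bases before the RefSeq start. That start lies inside the GENCODE gene, by 161 bases for Hba-a1, 168 for Hbb-bs, 73 for Hbb-bt and 42 for Alas2, so that the windows overlap the longest GENCODE models. Hba-a2 is left out of the display because its 250 bases before the start shared an unbroken run of 247 bases with Hba-a1, against a longest run of 14 bases between the beta genes. The windows are chr11:32283522-32283671 on the plus strand for Hba-a1, chr7:103827929-103828078 on the minus strand for Hbb-bs, chr7:103813924-103814073 on the minus strand for Hbb-bt and chrX:150547267-150547416 on the plus strand for Alas2.
Hba-a1: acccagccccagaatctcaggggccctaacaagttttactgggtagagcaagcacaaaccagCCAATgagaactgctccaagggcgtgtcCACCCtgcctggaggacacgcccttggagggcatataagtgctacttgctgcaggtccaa
Hbb-bs: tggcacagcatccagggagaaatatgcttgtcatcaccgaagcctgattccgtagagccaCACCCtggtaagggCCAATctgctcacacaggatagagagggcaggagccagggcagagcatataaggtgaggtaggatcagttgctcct
Hbb-bt: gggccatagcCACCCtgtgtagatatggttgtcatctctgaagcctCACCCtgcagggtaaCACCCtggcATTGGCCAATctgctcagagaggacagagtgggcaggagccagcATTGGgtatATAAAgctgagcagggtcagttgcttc
Alas2: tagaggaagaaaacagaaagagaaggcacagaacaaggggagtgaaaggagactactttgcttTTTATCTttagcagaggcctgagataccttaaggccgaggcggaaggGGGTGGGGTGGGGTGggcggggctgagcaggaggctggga

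All 4 globin promoters held both CACCC and CCAAT within 250 bases of the RefSeq start, and Alas2 held CACCC but no CCAAT. Both Alas2 and Hbb-bs held AGATAA, in Hbb-bs before the bases shown. Among 32841 promoters of the same length, 52.0% held CACCC, 33.9% held CCAAT, 10.0% held AGATAA and 37.3% held ATAAA on either strand. These matches describe the letters and were not tested as binding sites. In Alas2, AGATAA and ATAAA on the minus strand overlapped, so their capitals run together.

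Sequencing depth lay between 15432258 and 20649645 counts per mouse, so that 3 counts corresponded to 0.145 to 0.194 counts per 1000000 (CPM). CPM values below were scaled by TMM over all 32 libraries. The column names placed the AB1 tumors on lane 3 (8 IPL, 2 SC) and lane 2 (6 SC), and the AE17 tumors on lane 2 (5 IPL) and lane 1 (3 IPL, 8 SC).

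The AB1 IPL tumors of mice 3, 4 and 5, stood apart from the other 29 tumors. Kel, a red cell blood group antigen gene, had 72 to 157 counts in these mice against at most 2 elsewhere, and Epb42, which encodes a protein that anchors band 3, had 38 to 124 against at most 4. The same 3 tumors also had the most RNA of several marrow and bone genes. The neutrophil granule gene Ngp had 559 to 2514 counts against at most 276 in the other tumors, the platelet chemokine gene Ppbp 149 to 650 against at most 47, and the osteocalcin gene Bglap 410 to 1163 against at most 174. In each of these last comparisons the highest of the other tumors was AB1 IPL mouse 1. The neutrophil list summed to 698.9, 436.5 and 187 CPM in mice 3, 4 and 5, against at most 102.9 CPM in any other tumor. The platelet list summed to 90.5, 53.9 and 32.4 CPM, against up to 83.3 CPM in AE17 SC and 35.8 CPM in AB1 SC tumors. The platelet genes Pf4 and Itga2b and the neutrophil gene Csf3r reached their highest CPM outside AB1 IPL. The cartilage collagen gene Col2a1 was high in mice 3 and 4 (730 and 875 counts) but not in mouse 5 (4 counts), and Kel and Car1 were at 0 in all 8 AB1 SC tumors. The part of these cell types in the red cell results was not tested. Results that rest on the 3 mice are given with and without them; they are those with over 50 counts of Kel, itself a red cell gene, a rule set after the values had been seen.

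**Figure D1:**
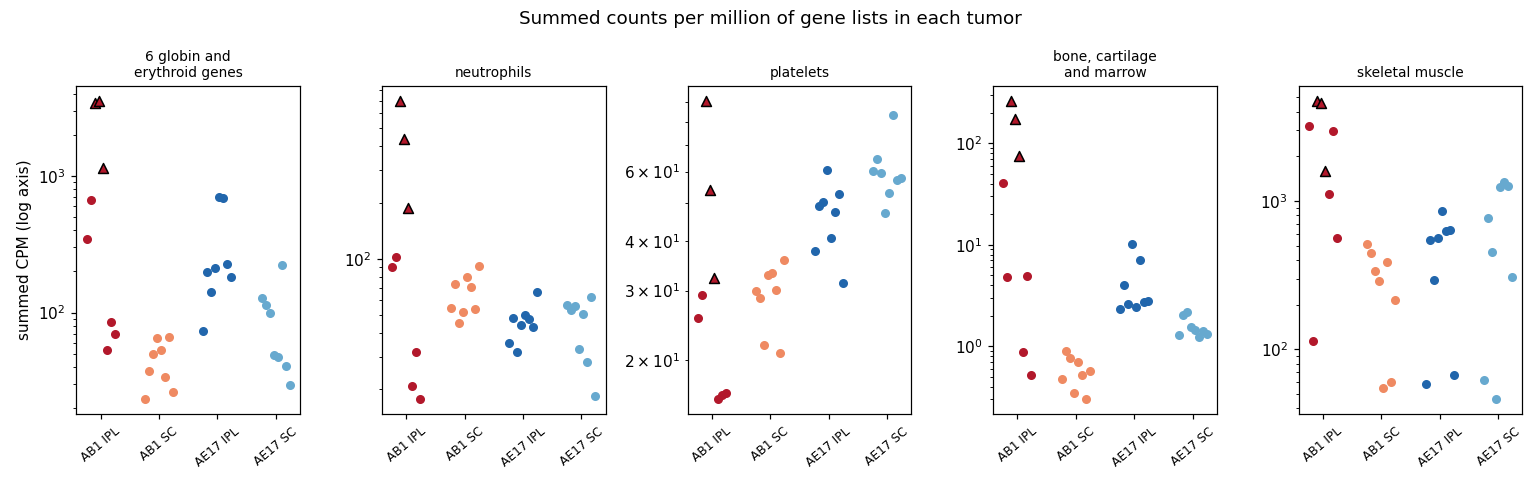
Summed CPM (log axis) in each tumor of the 6 globin and erythroid genes and of lists of neutrophil, platelet, bone with cartilage and marrow, and skeletal muscle genes. Points are mice, and the black-edged triangles are AB1 IPL mice 3, 4 and 5. The 6 genes summed to 3416 and 3527 CPM in mice 3 and 4, against 23.3 to 66.3 CPM in the AB1 SC tumors.

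The alpha globin Hba-a1 varied from 8.12 to 970.6 CPM among the tumors. In AB1 IPL tumors it had between 19.2 and 970.6 CPM with a median of 139 CPM, and in AB1 SC tumors between 8.78 and 22.2 CPM with a median of 15.1 CPM. In AE17 IPL tumors it had between 20.8 and 191 CPM with a median of 55.8 CPM, and in AE17 SC tumors between 8.12 and 62.0 CPM with a median of 18.2 CPM. The AB1 IPL tumors were themselves uneven: mice 3 and 4 were highest, mice 6, 7 and 8 had 329, 552 and 460 counts, close to the SC range, and 7 of 8 lay above every AB1 SC tumor. In AE17, 2 of 8 IPL tumors, mice 5 and 6, lay above every SC tumor, and 4 SC tumors lay below every IPL tumor. Hba-a2 followed Hba-a1 in every mouse, from 17.6 to 929 CPM in AB1 IPL tumors and from 7.99 to 20.6 CPM in AB1 SC tumors.

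The beta globins gave the same order of groups by median as Hba-a1. Hbb-bs had between 9.69 and 886 CPM with a median of 133 CPM in AB1 IPL tumors, and between 3.68 and 15.3 CPM with a median of 9.94 CPM in AB1 SC tumors. It had between 18.04 and 197 CPM with a median of 55.8 CPM in AE17 IPL tumors, and between 7.33 and 57.1 CPM with a median of 22.03 CPM in AE17 SC tumors. Of the 8 AB1 IPL tumors, 6 lay above every AB1 SC tumor, the exceptions being mice 6 and 8. In AE17, 4 of 8 IPL tumors lay above every SC tumor. Hbb-bt had a median of 92.8 CPM in AB1 IPL, 7.15 CPM in AB1 SC, 42.7 CPM in AE17 IPL and 15.8 CPM in AE17 SC tumors, and its groups overlapped in the same mice.

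Alas2 (ENSMUSG00000025270.13, chrX:150547375-150570638, plus strand, 11 exons), the first and rate-limiting enzyme of heme synthesis in red cell precursors, was detected in all 32 tumors but with few reads in most. It had 634, 668 and 209 counts in AB1 IPL mice 3, 4 and 5, then 39 and 74 counts in mice 1 and 2 and 3 to 10 counts in mice 6, 7 and 8. In AB1 SC tumors it had 4 to 12 counts. In AE17 IPL tumors it had between 5 and 77 counts with a median of 33.5 counts, and in AE17 SC tumors between 8 and 35 counts with a median of 10.5 counts. In AE17, 3 IPL tumors lay above every AE17 SC tumor and 1, mouse 1, lay below them all.

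Slc4a1 (ENSMUSG00000006574.15, chr11:102348824-102366203, minus strand, 20 exons) had a different pattern from the globins. It had 1740, 1521 and 600 counts in AB1 IPL mice 3, 4 and 5, and 30, 1, 1, 0 and 6 counts in mice 1, 2, 6, 7 and 8, so that the 3 mice held 99.0% of the Slc4a1 counts of the group against 86.4% of its Hbb-bs counts. AB1 IPL mouse 2 had 3336 Hbb-bs counts and 74 Alas2 counts with only 1 Slc4a1 count. All 8 AB1 SC tumors had 0 counts, which over the group allows up to 0.0219 CPM. Every AE17 tumor had a few counts, from 3 to 20 in IPL and from 2 to 22 in SC tumors, with medians of 12.5 and 9 counts.

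**Figure D2:**
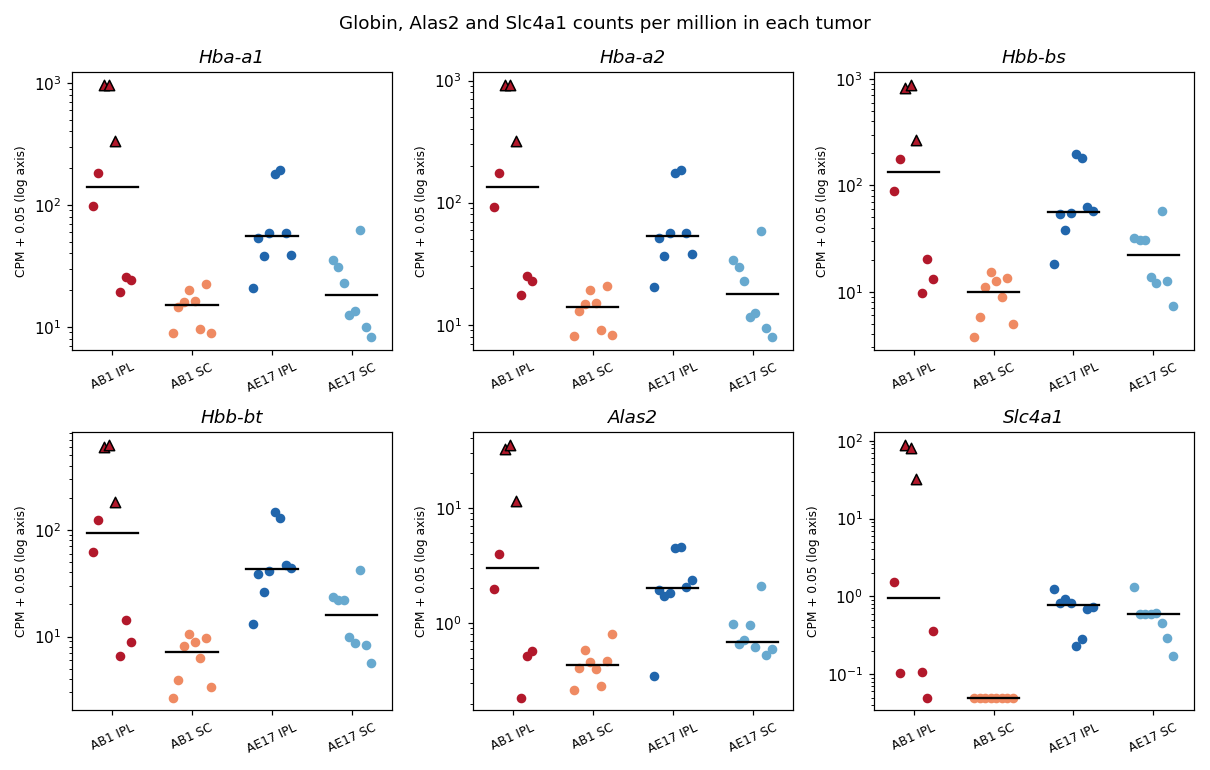
CPM plus 0.05 (log axis) of each gene in each tumor by group, with the group median as a black bar. Points are mice, and the black-edged triangles are AB1 IPL mice 3, 4 and 5. The triangles are the highest AB1 IPL values for all 6 genes, and all 8 AB1 SC tumors are at 0 for Slc4a1.

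Per kilobase of exon, the globins were far above the other 2 genes in every group. In AB1 SC tumors the median level was 20.7 CPM per kb for Hba-a2, 18.6 for Hba-a1, 12.9 for Hbb-bs and 10.2 for Hbb-bt, against 0.158 for Alas2. In AE17 SC tumors the median level was 28.7 CPM per kb for Hbb-bs, 26.5 for Hba-a2, 22.5 for Hbb-bt and 22.4 for Hba-a1, against 0.264 for Alas2 and 0.11 for Slc4a1. The ranges of the 4 globins overlapped in each group, and the order within a pair depends on how reads that fit both copies were counted.

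In AB1, all 4 globins tested were higher in IPL than in SC tumors. The log2 fold change was 4.48 ± 0.84 (SE, edgeR adjusted p = 0.0013) for Hba-a1, 4.53 for Hba-a2, 4.91 ± 0.93 (adjusted p = 0.0013) for Hbb-bs and 4.92 for Hbb-bt, which is 22.3-fold for Hba-a1 and 30.1-fold for Hbb-bs. For comparison, 12.3% of the 14645 genes tested were called higher. The size rested on the 3 mice. Without mice 3, 4 and 5 the log2 fold change was 2.26 ± 0.53 (adjusted p = 0.0099) for Hba-a1 and 2.71 ± 0.67 (adjusted p = 0.013) for Hbb-bs, 4.8-fold and 6.55-fold, and all 4 globins were still called, with 22.3% of 14861 genes called in either direction. A fit by limma-voom with sample quality weights gave 2.84 for Hba-a1 and 3.21 for Hbb-bs with all 8 mice. It works on log values and does not weight all samples alike. With lane as a covariate, where the calls over all genes in either direction fell from 23% to 2.64%, none of the 4 passed the adjusted threshold (log2 fold changes 4.81 to 5.95, adjusted p 0.117 to 0.146, all 4 with an unadjusted p under 0.05). Within lane 3, where only 2 SC mice were left and 1.06% of all genes were called, the 4 globins had adjusted p between 0.299 and 0.334. In bulk tumors fewer red cells cannot be told apart from less globin mRNA per cell.

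Alas2 and Slc4a1 had too few counts in most AB1 tumors to pass the filter on low counts and were tested without it. Alas2 was then higher in AB1 IPL tumors with a log2 fold change of 4.70 ± 1.07 (edgeR adjusted p = 0.0087, with 13.5% of 28091 genes called in either direction), while without the 3 mice it was 1.77 ± 0.58 (adjusted p = 0.068). Slc4a1 did not pass the threshold (adjusted p = 0.078, and 0.15 without the 3 mice). Its 3899 counts over the 8 AB1 IPL tumors against 0 in the SC tumors put it at least 1178-fold higher, and its 38 counts in the other 5 IPL mice at least 18.2-fold higher, against a floor of 3 counts over the SC group. Of these 38 counts 30 were in mouse 1, and mice 2, 6, 7 and 8 had 1, 1, 0 and 6.

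In AE17 the globins were 3.29-fold to 3.44-fold higher in IPL than in SC tumors, and none passed the adjusted threshold. The log2 fold change was 1.72 ± 0.53 (edgeR adjusted p = 0.064) for Hba-a1 and 1.76 ± 0.51 (adjusted p = 0.055) for Hbb-bs. Alas2 rose by 1.48 ± 0.42 (adjusted p = 0.047), 2.80-fold, the only call among the 5 genes tested, where 2.6% of the 14668 genes tested were called higher. These calls sat on the threshold. In either direction edgeR called 5.73% of all genes, and DESeq2 and limma-voom, which called 11.3% and 27%, called all 5. Without AE17 SC mouse 1 (14% of all genes called) or without AE17 SC mouse 6 (3.4%) edgeR also called all 5, and without any 1 of 13 other mice (2.14% to 10.5%) it called none. Without AE17 IPL mouse 1 (3.81%) the calls were Hbb-bs, Hbb-bt and Alas2. With lane as a covariate none was called (log2 fold changes 1.8 to 2.05, adjusted p 0.181 to 0.204, all 5 with an unadjusted p under 0.05), where 1 of all 14668 genes was called (0.00682%). Within lane 1, with 3 IPL mice and 0.0911% of all genes called, the log2 fold change was 1.98 for Hba-a1 (adjusted p = 0.249) and 1.79 for Alas2 (adjusted p = 0.135). Slc4a1 failed the filter, and without it had a log2 fold change of 0.31 ± 0.39 (adjusted p = 0.70).

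**Figure D3:**
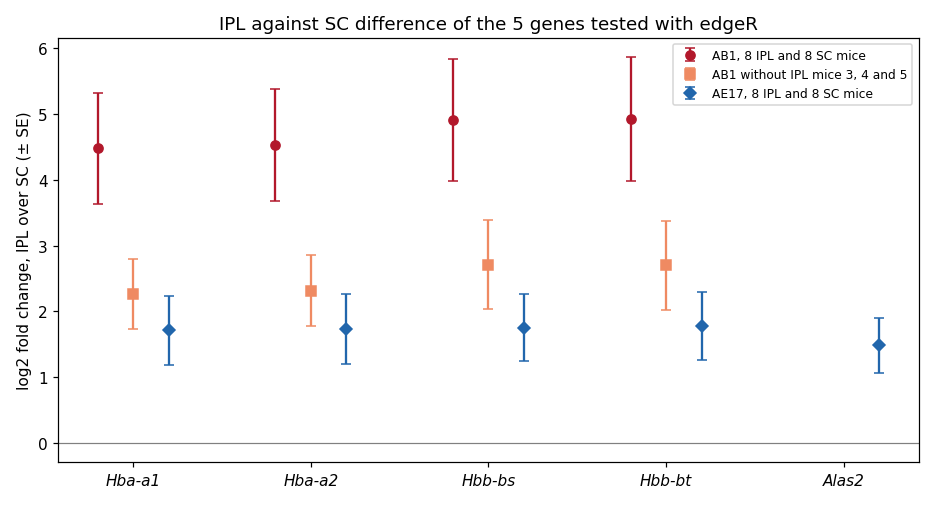
Log2 fold change of IPL over SC tumors from edgeR, for AB1 with all mice, for AB1 without IPL mice 3, 4 and 5, and for AE17. Bars are standard errors worked out from the F statistic. Slc4a1, and Alas2 in AB1, failed the filter on low counts and have no point. Hba-a1 moves from 4.48 to 2.26 when the 3 mice are left out, next to 1.72 in AE17.

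The difference between the 2 site effects was tested in 1 fit over all 4 groups. All 6 genes had a larger IPL over SC difference in AB1, by 2.78 ± 0.95 on the log2 scale for Hba-a1 (edgeR adjusted p = 0.036), 3.17 ± 1.00 for Hbb-bs (adjusted p = 0.024) and 3.23 ± 1.07 for Alas2 (adjusted p = 0.031). The adjusted p was 0.0050 for Slc4a1, whose fold is not given because AB1 SC tumors had no counts. Of the 15681 genes tested, 11.9% were called in this direction. Without AB1 IPL mice 3, 4 and 5 the difference was 0.57 ± 0.77 for Hba-a1 (edgeR adjusted p = 0.66) and 0.97 ± 0.84 for Hbb-bs (adjusted p = 0.45). Only Slc4a1 was then called (edgeR adjusted p = 0.013), beside 19.8% of all genes in either direction. Its AB1 difference then rested on 38 counts in the other IPL mice, 30 of them in mouse 1, against 0 in SC tumors. With all mice, Slc4a1 failed the filter on low counts in the fit of each model alone. Leaving out a single mouse was enough to lower the number of calls from 6 to 2 or 1. It was 2 without AB1 IPL mouse 3 (20.1% of all genes called) or AE17 SC mouse 6 (17.2%), and 1 without AB1 IPL mouse 4 (19.7%). With lane as a covariate none was called, with 3 of the 6 at an unadjusted p under 0.05. The calls over all genes in either direction fell with lane from 20.5% to 0.746%.

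Between the models the 2 sites gave different pictures. In SC tumors none of the 6 genes differed by edgeR, with 1 at an unadjusted p under 0.05, although 58.3% of all genes tested were called in either direction. Hbb-bs was lower in AB1 by 1.37 ± 0.72 on the log2 scale (adjusted p = 0.10) and Hba-a1 by 0.75 ± 0.67 (adjusted p = 0.35). Slc4a1 was the only 1 of the 6 genes whose groups did not overlap, as in 30.9% of all genes tested, with 0 counts in 8 AB1 SC tumors against 71 counts in 8 AE17 SC tumors, at least 23.9-fold higher in AE17; its adjusted p was 0.066 by edgeR, 4.6e-05 by DESeq2, 0.018 by limma-voom and 9.8e-05 by edgeR when the AB1 IPL mice 3, 4 and 5 were left out of the shared fit, where Hbb-bs and Hbb-bt were also called beside 60.9% of all genes. In IPL tumors all 6 were called higher in AB1 (log2 fold change 2.03 ± 0.67, adjusted p = 0.0097 for Hba-a1, and 1.79 ± 0.70, adjusted p = 0.026 for Hbb-bs), beside 31.6% of all genes. Without the 3 mice none was called (61.2% of all genes were, in either direction), none had an unadjusted p under 0.05 and every direction turned, to -0.20 for Hba-a1, -0.41 for Hbb-bs and -0.74 for Alas2, and limma-voom with all mice also called none of the 6 but 67.3% of all genes. These comparisons use the same tumors as the comparisons of sites. Each lane held mice of 1 model only apart from lane 2, where the AB1 mice were SC and the AE17 mice IPL, so lane and model cannot be told apart.

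Alas2 and Slc4a1 were then set against Hbb-bs mouse by mouse. The log2 ratio of Alas2 to Hbb-bs counts, with 0.5 added to each, averaged -5.06 ± 0.47 (SD, n = 8) in AB1 IPL, -4.38 ± 0.86 in AB1 SC, -5.04 ± 0.45 in AE17 IPL and -4.68 ± 0.70 in AE17 SC tumors. None of its 4 group comparisons passed an exact two-sided permutation test over mice after adjustment for the 20 ratio tests run (adjusted p 0.178 to 0.944). The ratio of Slc4a1 to Hbb-bs ranged far more widely, from -3.05 in AB1 IPL mouse 5 to -11.1 in AB1 IPL mouse 2. In SC tumors it was lower in AB1 than in AE17 by 2.81 on the log2 scale, lower in 8 of 8 mice (exact permutation p = 0.000155, the smallest that 8 against 8 mice can give, adjusted p = 0.0031). All 8 AB1 SC tumors had 0 Slc4a1 counts, so their ratio holds only the added 0.5 over Hbb-bs. The size of this difference therefore depends on the count added. With 2 counts added in place of 0.5 the difference was -1.11 (exact permutation test, adjusted p = 0.068). Between AB1 sites it was higher in IPL tumors by 2.14 on the log2 scale (exact permutation p = 0.0748, adjusted p = 0.187), by 0.44 without mice 3, 4 and 5 (adjusted p = 0.647) and by 0.70 with 2 counts added (adjusted p = 0.531).

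**Figure D4:**
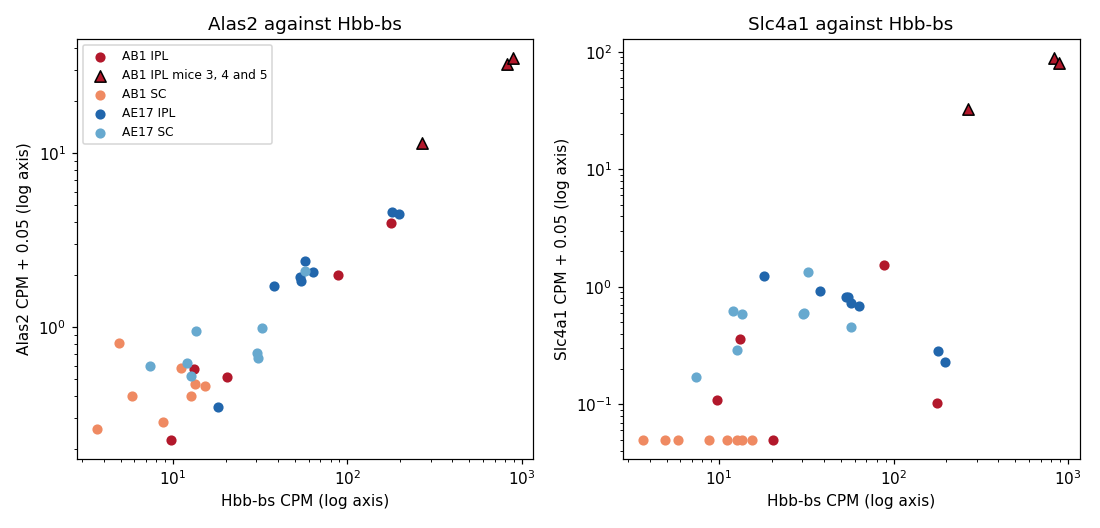
CPM plus 0.05 of Alas2 (left) and Slc4a1 (right) against CPM of Hbb-bs in each of the 32 tumors, on log axes. Alas2 rises along with Hbb-bs over the 32 tumors, though not detectably within AB1 SC tumors. Slc4a1 is high only in the 3 black-edged triangles, AB1 IPL mice 3, 4 and 5, and is lower in the AE17 IPL tumors with more Hbb-bs.

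Within AE17 IPL tumors Slc4a1 ran opposite to the globins. Mice 5 and 6, with 3262 and 3059 Hbb-bs counts, had 3 and 4 Slc4a1 counts, while mouse 1, with 304 Hbb-bs counts, had 20. Over the 8 mice the log2 CPM of the 2 genes had r = -0.973 (exact permutation p = 4.96e-05, adjusted p = 0.000215) and Spearman rho = -0.976 (exact permutation p = 0.0004, adjusted p = 0.0017), and r was -0.974 without mice 5 and 6, the 2 farthest from the median. The lanes held 5 and 3 of these mice, too few for a value within a lane. In AE17 SC tumors r was 0.562 (exact permutation p = 0.147, adjusted p = 0.173), and rho was 0.357 (exact permutation p = 0.389, adjusted p = 0.422), with r = 0.586 without the 2 farthest mice.

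Alas2 followed Hbb-bs in AE17 IPL tumors with r = 0.935 (exact permutation p = 0.000397, adjusted p = 0.000914), rho = 0.929 (exact permutation p = 0.0022, adjusted p = 0.0036) and r = 0.958 without the 2 farthest mice. In AE17 SC tumors r was 0.713 (exact permutation p = 0.0313, adjusted p = 0.0407) and rho 0.833 (exact permutation p = 0.0154, adjusted p = 0.020), but r fell to 0.354 without mice 6 and 8, so the relation rests on them. In AB1 SC tumors, where Alas2 had at most 12 counts, r was 0.14 (exact permutation p = 0.742, adjusted p = 0.742), rho was 0.238 (exact permutation p = 0.582, adjusted p = 0.582) and r was 0.382 without the 2 farthest mice. Hba-a1 and Hbb-bs, which share no reads, correlated with r = 0.979 in AE17 IPL, 0.974 in AE17 SC and 0.835 in AB1 SC tumors (exact permutation p = 0.00117, 0.000422 and 0.0167, adjusted p = 0.0019, 0.00091 and 0.024), with rho of 0.905, 0.929 and 0.952 (exact permutation p = 0.0046, 0.0022 and 0.0011, adjusted p = 0.0066, 0.0036 and 0.0025) and r of 0.925, 0.948 and 0.626 without the 2 farthest mice. In the 6 AB1 SC mice on lane 2 the r was 0.894 between Hba-a1 and Hbb-bs and -0.499 between Hbb-bs and Alas2. Because 3 of the AB1 IPL mice stood apart, no correlation was tested within that group. In all, 13 relations within groups were tested.

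The balance of alpha to beta globin differed between the models. The alpha rows took 64.4% ± 6.6 (SD, n = 8) of the globin counts in AB1 SC tumors and 59.8% ± 5.7 in AB1 IPL tumors, against 52.5% ± 3.6 in AE17 SC and 52.3% ± 4.2 in AE17 IPL tumors. The difference between AB1 and AE17 was 11.9 percentage points in SC tumors, with 7 of 8 AB1 tumors above every AE17 tumor (exact permutation p = 0.000777, adjusted p = 0.0078), and 7.54 points in IPL tumors, with 4 of 8 above (exact permutation p = 0.0031, adjusted p = 0.012), or 9.06 points without AB1 IPL mice 3, 4 and 5 (adjusted p = 0.035). From Hba-a1 and Hbb-bs alone the shares were 61.5%, 56.3%, 49.3% and 49.2% in the same order of groups. Between the sites the share differed by -4.58 points in AB1 (exact permutation p = 0.159, adjusted p = 0.297) and by -0.21 points in AE17 (adjusted p = 0.944). The 2 AB1 SC mice on lane 3 had the highest shares of all, 72.7% and 73.9%, and within lane 3 the AB1 difference between sites was -13.5 points (exact permutation test, adjusted p = 0.056), while within lane 1 the AE17 difference was -2.77 points (adjusted p = 0.596). Within AB1 IPL, the 5 tumors with the most globin had shares of 55.7%, 54.3%, 56.9%, 55.7% and 59.2%, and the 3 with the least had 69.3%, 59.4% and 67.8%. AB1 tumors carry the BALB/c beta globin haplotype and were counted against C57BL/6 gene models, and the part of this in the share was not tested.

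Within the beta pair, the Hbb-bt row took 41.0% ± 0.5 (SD, n = 8) of the counts in AB1 IPL and 41.1% ± 0.8 in AB1 SC tumors. It took 42.4% ± 0.8 in AE17 IPL and 41.8% ± 1.1 in AE17 SC tumors. The AB1 mice carry the BALB/c diffuse haplotype, so their beta globin reads were counted against gene models of another haplotype. For AB1 the row is therefore not a measure of an Hbb-bt gene. The part of the haplotype in the differences of the Hbb-bt share between AB1 and AE17 was not tested. The share was 1.40 points lower in AB1 than in AE17 among IPL tumors, with 5 of 8 AB1 tumors below every AE17 tumor (exact permutation p = 0.0019, adjusted p = 0.012; without the 3 mice 1.56 points, adjusted p = 0.035), and 0.71 points lower among SC tumors, which did not pass (exact permutation p = 0.163, adjusted p = 0.297). It did not differ detectably between the sites, by -0.15 points in AB1 (adjusted p = 0.72) and 0.54 points in AE17 (adjusted p = 0.41). Within the alpha pair, Hba-a1 exceeded Hba-a2 in all 32 mice, and Hba-a2 took 48.05% to 49.1% of the counts by group mean. Its share was 0.81 points lower in AB1 SC than in AE17 SC tumors (exact permutation p = 0.0031, adjusted p = 0.012) and 0.80 points lower in AB1 SC than in AB1 IPL tumors (exact permutation p = 0.0048, adjusted p = 0.016), where within lane 3 the difference was 1.27 points (adjusted p = 0.056). Without AB1 IPL mice 3, 4 and 5 the latter difference was 0.73 points and did not pass (exact permutation test, adjusted p = 0.093).

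These within-pair shares were steadier among mice than counts of separate reads would be for the alpha pair in every group and for the beta pair in SC tumors, and nearer to such counts for the beta pair in IPL tumors. If each read had been counted in 1 row, the chi-square of the shares among the 8 mice of a group would be near its 7 degrees of freedom. For the alpha pair it was between 0.263 and 0.766, and for the beta pair it was 5.47 in AB1 IPL, 3.56 in AE17 IPL, 0.395 in AB1 SC and 1.36 in AE17 SC tumors. The handling of reads that fit several genes is not given in the sources used here.

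**Figure D5:**
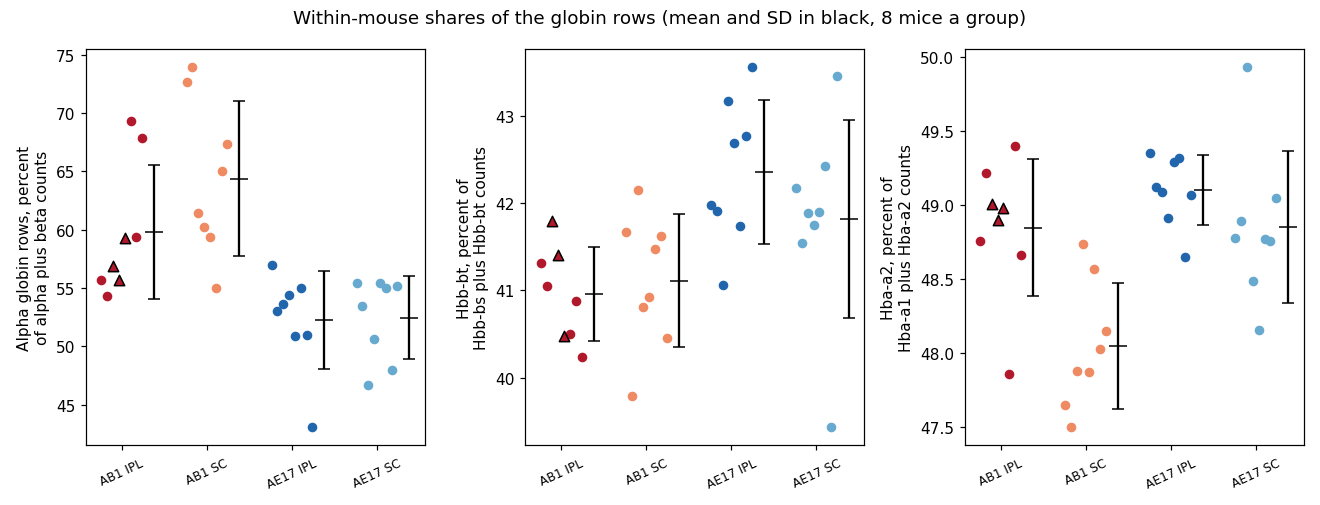
Share of the alpha rows among all globin counts, of Hbb-bt among the beta rows and of Hba-a2 among the alpha rows, in percent, per tumor and group. Points are mice, triangles are AB1 IPL mice 3, 4 and 5, and black bars are means with SD. The alpha share is higher in AB1, and the axes do not start at 0 because the within-pair shares span only a few points.

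Embryonic and minor globins were almost absent. Hba-x and Hbb-bh2 had 0 counts in all 32 tumors, and Hbb-y and Hbb-bh1 had at most 1 count in a tumor. Hbq1b, a theta-like globin gene beside the alpha globins, had at most 16 counts in AB1 IPL tumors and at most 4 in any other group.

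Other genes of the red cell membrane and its enzymes were described by counts. Of 21 with a row, 11 passed the filter in AB1, of which 7 were higher in IPL tumors and 0 lower by edgeR, with a median log2 fold change of 0.92 against -0.0023 over all genes tested. Of all genes tested in AB1, 12.3% were called higher and 23% in either direction. Sptb, which encodes the beta spectrin of red cells and of muscle, rose by 3.46 ± 0.54 on the log2 scale (adjusted p = 0.00025), Hemgn, a red cell nuclear protein gene, by 2.62 ± 0.81 (adjusted p = 0.026) and Ermap by 2.09 ± 0.61 (adjusted p = 0.019). Without the 3 mice 5 of 11 were higher, where 22.3% of all genes were called in either direction. The median was then 0.09 and Hemgn turned to -0.40 (adjusted p = 0.42). In AE17, 0 of 10 were higher and 2 were lower, with a median of 0.08, where 5.73% of all genes were called in either direction.

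Genes of heme synthesis and iron uptake were called in both directions. In AB1, 2 of 14 tested were higher and 3 lower, with a median log2 fold change of 0.09. Of all genes tested in AB1, 12.3% were called higher and 23% in either direction. In AE17 1 of 15 was higher and 3 were lower, with a median of -0.03. Of all genes tested in AE17, 2.6% were called higher and 5.73% in either direction. These shares apply to each list of this paragraph. The mitochondrial iron importer gene Slc25a37 was the higher one in AE17, by 0.36 on the log2 scale, and was lower in AB1 by 0.35. The transferrin receptor gene Tfrc, which dividing cells use to take up iron, was lower in AB1 IPL tumors by 1.01 ± 0.24 on the log2 scale (edgeR adjusted p = 0.0051) and had a log2 fold change of 0.14 ± 0.16 in AE17 (adjusted p = 0.63). Among genes of erythroid transcription and its receptors, 1 of 11 was higher and 2 were lower in AB1, and 1 of 10 higher and 1 lower in AE17. The higher one in AB1 was the erythropoietin receptor gene Epor, by 0.71 ± 0.18 (adjusted p = 0.0070), and the stem cell factor receptor gene Kit was lower in both models, by 0.96 ± 0.13 in AB1 (adjusted p = 7.1e-05) and 0.94 ± 0.20 in AE17 (adjusted p = 0.016). The higher one in AE17 was Zfpm1, which encodes a partner of GATA1, by 0.55 ± 0.12 (adjusted p = 0.019). Of the genes listed for hemoglobin and heme clearance and iron transport, 1 of 12 was higher and 1 lower in AB1. The lower one was the transferrin gene Trf, by 1.06 ± 0.35 (edgeR adjusted p = 0.033). In AE17 0 of 11 were higher and 2 lower, the iron exporter gene Slc40a1 by 0.86 ± 0.19 (edgeR adjusted p = 0.021) and the heme transporter gene Slc48a1 by 0.55 ± 0.11 (adjusted p = 0.014).

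Markers of other cells that could be cut out with a tumor were counted beside the globins. For comparison, 12.3% of all genes tested were called higher and 23% in either direction in AB1, and 2.6% and 5.73% in AE17. Neutrophil genes summed to between 17.8 and 699 CPM in AB1 IPL tumors and between 45.5 and 91.6 CPM in AB1 SC tumors, with 3 of 6 tested higher and 1 lower, and 0 of 7 were called in AE17. The lactoferrin gene Ltf rose by 5.40 ± 1.26 in AB1 (edgeR adjusted p = 0.0055). Without the 3 mice 0 neutrophil genes were higher and 1 was lower, where 22.3% of all genes were called in either direction. Bone, cartilage and marrow genes summed to between 0.522 and 259.7 CPM in AB1 IPL and between 0.302 and 0.909 CPM in AB1 SC tumors, and none of the 8 passed the filter in either model. Skeletal muscle genes summed to between 114 and 4729 CPM in AB1 IPL and between 55.1 and 513 CPM in AB1 SC tumors, with 9 of 10 higher, such as Actn3 by 4.76 ± 0.70 (adjusted p = 0.0002), and 0 of 10 were called in AE17. The muscle sum was highest in AB1 IPL mice 3 and 4 (4729 and 4569 CPM), which also had the most globin. It was 3211 and 2963 CPM in mice 1 and 7, with 343 and 85.9 CPM of the 6 genes, and 114 CPM in mouse 2, with 662 CPM of the 6 genes. Heart muscle genes had 2 of 5 higher and 2 lower in AB1, and 2 of 5 higher in AE17, and Myh7, a myosin of heart and slow muscle, rose by 6.15 ± 1.03 in AB1 (adjusted p = 0.00053) and 3.75 ± 0.90 in AE17 (adjusted p = 0.027). Adipocyte genes had 3 of 5 higher in AB1 and 0 of 6 in AE17, and AE17 IPL mouse 5, with the most globin of its group, had 1204 CPM of adipocyte genes against at most 91.0 in the others. Endothelial genes had 4 of 10 higher and 1 lower in AB1 and 1 of 10 higher in AE17, and of the platelet genes none of 3 was called in AB1 and 1 of 4 was lower in AE17. Lung epithelium had 1 of 2 lower in each model, and the 1 mesothelial gene tested was called in neither. Their part in the globin differences was not tested.

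The genes most like Hbb-bs over the 32 mice, after the mean of each group was removed from log2 CPM, were looked for among the 13982 genes whose mean reached 1 CPM. After the other globins (r = 0.981 for Hba-a1) and Alas2 (r = 0.919), the closest were the neutrophil genes S100a8 (r = 0.820), Prtn3 (0.812) and S100a9 (0.792), the platelet integrin gene Itga2b (0.783), and Fam117a (0.765) and Slc43a1 (0.754). Slc4a1 had r = 0.660. These values are a description: the tumors share their libraries, and over the 29 tumors without AB1 IPL mice 3, 4 and 5 r was 0.616 for S100a8, 0.635 for Prtn3, 0.657 for Itga2b and 0.013 for Slc4a1, while it stayed at 0.833 for Alas2 and 0.960 for Hba-a1.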

How the data were processed

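Tumor RNA from 32 mice (4 groups of 8) was sequenced as 50 bp single-end reads. The authors deposited raw counts of reads per gene, made with bcl2fastq 1.8.4, FastQC, HISAT2 2.0.4 and SummerizeOverlaps, without normalization. The treatment of strand and of reads fitting several genes is not given in the sources used here. Groups and mouse numbers came from the sample titles, and lanes from the column names. Nothing says that mice came from separate experiments, so p-values measure the spread between these mice.

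Genes were tested with edgeR 4.0.16 (filterByExpr, TMM, robust quasi-likelihood F test, two-sided, Benjamini-Hochberg over all genes tested, threshold 0.05), within each model for the sites and in 1 fit of all 4 groups otherwise. The standard error given with an edgeR log2 fold change is its absolute value divided by the square root of the F statistic. CPM used TMM factors, and log2 CPM a prior count of 2. Ratios within a mouse were compared by exact permutation of 8 against 8 mice. DESeq2 1.42.0, limma 3.58.1 (voom, always with sample quality weights), other scalings and filters, lane, a replicate block and leaving out mice were alternatives. A count of 3 was taken as the floor, for counting error only. Scripts were tested on simulated data (Python 3.11.15, scipy 1.17.1).

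The 6 genes, the lists and the tests were chosen with earlier results of these data known, and the bone, cartilage and marrow list after its values were seen. Named were the 6 genes, from each other list up to 3 genes with the largest change among those called in either model (otherwise the most abundant), and the 6 genes most like Hbb-bs. Genes named outside this rule, such as Kel, Epb42, Car1, Ngp, Ppbp, Col2a1 and Slc25a37, were chosen after their values were seen, and 1 listed gene is not reported here. Coordinates and coding sequences were from GENCODE M21 (GRCm38) and promoters from RefSeq (GRCm38.p6), matched by symbol, with 5 of 6 promoters found.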

Additional observations from a re-analysis of the deposited data

Results flagged for a closer look

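Among 44 sets of 8 mice tested (each gene and each ratio in each group), 4 single values lay far from the rest of their group by Dixon's test, which flags about 1 set in 20 by chance. Alas2 was lowest in AE17 IPL mouse 1, at -1.29 log2 CPM, and highest in AE17 SC mouse 6, at 1.11 log2 CPM. The alpha share was lowest in AE17 IPL mouse 8, at 43.1%, and the Hbb-bt share was lowest in AE17 SC mouse 7, at 39.4%.

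The IPL over SC difference was larger in AB1 than in AE17 by edgeR's test of the difference, by 2.78 on the log2 scale for Hba-a1, 2.81 for Hba-a2, 3.17 for Hbb-bs, 3.15 for Hbb-bt and 3.23 for Alas2. Slc4a1 was called too (edgeR adjusted p = 0.0050), with no size given because all 8 AB1 SC tumors had 0 counts. Without AB1 IPL mice 3, 4 and 5 only Slc4a1 was still called, on 38 counts in the other AB1 IPL mice, 30 of them in mouse 1.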

How the results depend on the processing

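The 4 globin calls between AB1 IPL and SC tumors were kept by DESeq2, limma-voom, both other scalings, both filters, the replicate block, the omission of AB1 IPL mice 3, 4 and 5 (an alternative chosen after seeing the data) and the omission of any 1 mouse (4 to 5 genes called), but 0 were called with lane as a covariate and 0 within lane 3, where calls over all genes fell from 23% to 2.64% and 1.06%. In AE17 the number called, with the share of all genes called, was 1 (5.73%) by edgeR, 5 (11.3%) by DESeq2 and 5 (27%) by limma-voom. It was 0 (1.93%) with no filter, 0 (0.00682%) with lane as a covariate and 0 (0.0911%) within lane 1. When 1 mouse was left out it was 0 to 5 (2.14% to 14%). For the difference between the site effects, 6 genes were called (20.5% of all), against 1 by limma-voom (29.4%), 2 with no filter (9.01%) and 0 with lane as a covariate (0.746%). Without the 3 mice 1 was called with the filter (19.8%) and 1 with no filter (8.05%), and 1 to 6 were called when 1 mouse was left out (17.2% to 23.2%). Between the models in SC tumors 0 were called (58.3%), against 1 by DESeq2 (59.3%) and 1 by limma-voom (69.7%). Without the 3 mice 3 were called (60.9%), and 1 with no filter as well (36.2%). When 1 mouse was left out 0 to 1 were called, beside 56.1% to 61.1% of all genes (1 without AB1 IPL mouse 3, 6 or 7, which enter through the shared fit). In IPL tumors 6 were called (63.4% in either direction), against 0 by limma-voom (67.3%). Without the 3 mice 0 were called with the filter (61.2%) and 0 with no filter (35.5%), and 4 to 6 when 1 mouse was left out (61.3% to 63.9%). Without the 3 mice the log2 fold changes turned to -0.20 (Hba-a1), -0.21 (Hba-a2), -0.41 (Hbb-bs), -0.49 (Hbb-bt), -0.74 (Alas2) and -0.75 (Slc4a1), and with no filter to -0.18, -0.19, -0.39, -0.47, -0.72 and -0.76. Hemgn in AB1 turned to -0.40, and to -0.41 with no filter. The cause of these changes was not tested.

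Replicate numbers did not pair the mice: deviations of same-numbered IPL and SC mice correlated with a mean r of -0.118 in AB1 and 0.072 in AE17. With the numbers as a replicate block, 4 genes were called in AB1 (15.5% of all genes) and 0 in AE17 (4.51%). For the difference between the site effects 1 was called (18%). Between the models 1 was called in SC (57%) and 0 in IPL tumors (61.9%). In the paired permutation of the ratios the block left the differences as they were, at -1.40 points for the Hbb-bt share between the models in IPL tumors, 0.80 and -0.81 points for the Hba-a2 share between AB1 sites and between the models in SC tumors, 11.9 and 7.54 points for the alpha share between the models, and -2.81 for the log2 ratio of Slc4a1 to Hbb-bs in SC tumors, with adjusted p of 0.117 to 0.130, none below the threshold.

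Among the other ratio settings, within 1 lane the Hbb-bt share in AB1 turned to 0.23 points and the Hba-a2 share moved to 1.27 points (adjusted p = 0.056), and without the 3 mice the latter was 0.73 points (adjusted p = 0.093) and the Slc4a1 ratio between the models in IPL tumors turned to -1.07. With 2 counts added, the Slc4a1 ratio in SC tumors was -1.11 (adjusted p = 0.068) and the Alas2 ratio in IPL tumors turned from -0.018 to 0.015. Leaving out 1 mouse gave -0.13 to 0.062 for the Alas2 ratio between the models in IPL tumors, -1.04 to 1.10 points for the alpha share between AE17 sites, 1.71 to 2.86 for the Slc4a1 ratio between AB1 sites (2.14 with all mice, 0.44 without the 3 mice, 0.70 with 2 counts added), 0.14 to 0.40 points for the Hba-a2 share between AE17 sites and -1.05 to -0.48 points for the Hbb-bt share between the models in SC tumors. The last 3 passed the threshold only without AB1 IPL mouse 2, AE17 SC mouse 3 and AE17 SC mouse 7. Differences of medians and the share from Hba-a1 and Hbb-bs alone changed no direction and no call. Depth limits Slc4a1 and, outside the high tumors, Alas2, which had few counts.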
